A study of Mus musculus with 9 samples.

Results

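Reads from 2 forms of Chtop, an mRNA export protein, were examined over long 5' untranslated regions (5' UTRs), here those of 200 bases or more by the deposited length of the gene part. The length rule used no read count. It took 4382 of the 8843 5' UTRs with a deposited length, and 2374 of these 4382 had at least 1 count in the 9 libraries. The measurement was iCLIP, in which ultraviolet light ties RNA to the proteins that touch it and an antibody then recovers the tied RNA for sequencing.

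All libraries came from N2a Flp-In rtTA cells, a mouse neuroblastoma line built to take a transgene at a fixed site. The cells carried a doxycycline-inducible FLAG-Chtop cDNA that includes exon 5 (3 libraries, "with exon 5") or lacks it (3 libraries, "without exon 5"). The 3 size-matched inputs (lysate RNA from the same region of the gel, with no immunoprecipitation) came from the line without exon 5 (replicate 1), the line with exon 5 (replicate 2) and a FLAG-GFP line (replicate 3). The labels give doxycycline at 2 µg/mL for 24 h and crosslinking at 0.15 J/cm2 and 254 nm. Per the labels, replicates were independent and were harvested and processed on separate days. The protein was overexpressed and tagged in every isoform library, and the sources used here do not say if each line was 1 clone.

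The 5' UTR is the stretch of an mRNA between the cap and the start codon, which the small ribosomal subunit scans before translation begins. Long 5' UTRs are common in genes for growth control, signalling and transcription, and often hold upstream start codons and folded, GC-rich sequence. Chtop is a subunit of the TREX complex, which is loaded onto new mRNA near its 5' end and hands it to the export receptor. It is rich in arginine and glycine repeats that are methylated and that contact RNA.

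The deposited 5' UTRs came from one strand. RefSeq gives a strand for 3503 of the 4382 long 5' UTRs by gene symbol, and all 3503 were on the plus strand, with 0 on the minus strand. Over all 5' UTRs with a length, 6984 were on the plus strand and 0 on the minus strand, while RefSeq as a whole has 13572 genes on the plus strand and 13453 on the minus strand. Among genes of the authors' deposited table, the CDS lengths covered 2130 plus-strand and 2097 minus-strand genes, and the 3' UTR lengths covered 1984 and 1958. The 5' UTRs of minus-strand genes, the Chtop gene's own included, were therefore not analysed here.

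The long 5' UTRs had a median length of 380 bases, and the middle 50% lay between 271 and 556 bases. By length, 1437 had 200 to under 300 bases, 1582 had 300 to under 500, 1104 had 500 to under 1000 and 259 had 1000 or more, up to 3796. Of the 4382, 4365 were matched to a RefSeq gene.

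RefSeq (GRCm38.p6) gives 1 start for 2474 gene symbols among these, and the first 50 transcribed bases after that start had a median GC content of 64.0%, against 62.0% for genes with a 5' UTR under 200 bases and 56.0% for all RefSeq genes with 1 start. The letters ATG stood in 29.1% of these windows on the transcribed strand, against 39.3% for the shorter 5' UTRs and 45.8% for all genes. The RefSeq start need not be the start in the deposited annotation, and in a short 5' UTR the window can hold the start codon itself. The short run GGAG, picked after the sequences were read, stood in 40.5% of windows from genes with a long 5' UTR, in 38.1% for shorter 5' UTRs and in 33.6% for all genes. To show what such starts look like, 30 bases are given for the 6 genes with GGAG near a single RefSeq start among those described below as highest over input. Capitals mark every GGAG, overlapping ones included, and only the transcribed strand was searched. All lie on the plus strand of GRCm38.p6. Man2a1 was read at chr17:64601657-64601686, Wapl at chr14:34673928-34673957, Rai1 at chr11:60105033-60105062, Kif5c at chr2:49619286-49619315, Zswim8 at chr14:20707552-20707581 and Ccdc88a at chr11:29373672-29373701. Only for Kif5c does the RefSeq gene span begin at the start used. For the others the span begins further upstream, for Wapl at 34672379 and for Zswim8 at 20706277. The start used therefore need not be the gene's first or only one.
Man2a1: gcgatcgccggctGGAGtcctcagtcttct
Wapl: gttGGAGgaaGGAGgtggggggccgGGAGc
Rai1: cgccgctcttcctgtgtGGAGgggatcgca
Kif5c: gaggggcgggcctGGAGgtgccGGAGcacg
Zswim8: agctgatgggGGAGgcggcgccgcagccgc
Ccdc88a: tccagagggcggcGGAGGAGgctGGAGcgc

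The same letters were counted over the called genes. GGAG stood in 48.7% of the windows of genes called higher with the isoforms than in input (38 of 78 with 1 start), against 46.9% of all windows of long 5' UTRs tested (179 of 382). Among genes called lower, 3 of 8 windows held it. The run GGGG stood in 26.9% of the windows of genes called higher and in 33.8% of those tested. The median GC content was 70.0% and 68.0% in the same order.

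The libraries differed in depth. Total counts were 783868 to 1328423 with exon 5, 624062 to 1844970 without exon 5 and 75504 to 173342 in inputs. Levels are given as CPM, counts scaled to the size of the library, with the library's total count times its TMM factor as that size, and 3 counts, the limit that a count of 0 allows, came to 2.26 to 5.74 CPM in isoform libraries and 14.7 to 20.0 CPM in inputs. Of 14 genes that mark N2a cells and neurons, 8 were named in the tables, and 6 were counted in all 6 isoform libraries. Of 15 genes of other cell types, 6 were named, and their summed level was 10.5 to 45.3 CPM in isoform libraries and 0 to 73.2 CPM in inputs. Chtop itself, over all parts of its gene, had 360 to 400.0 CPM with exon 5 and 219 to 283 CPM without exon 5, against 0 to 424 CPM in inputs, and counts per gene do not show exon 5.

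Long 5' UTRs took a small share of the counted RNA in all groups. They held 2.77% ± 0.39 of all counts with exon 5, 3.02% ± 0.17 without exon 5 and 2.59% ± 0.21 in inputs (SD, n = 3 each), and the ranges of libraries with exon 5 and inputs overlapped. The libraries without exon 5 (2.83% to 3.13%) all lay above the inputs (2.39% to 2.81%), by a narrow margin. Without the 10 long 5' UTRs with most counts these ranges overlapped, at 2.69% to 2.90% and 2.32% to 2.76%. Those 10 were ranked on counts over all libraries, most of them from the deeper isoform libraries. Their removal lowers the isoform shares more by design, so the overlap shows only the weight of those 10. The total holds CDS and 3' UTR counts of genes on both strands, so these shares leave out the 5' UTRs of minus-strand genes. Within the 5' UTR table they held 86.7% ± 1.4, 85.8% ± 0.4 and 83.3% ± 1.6 of counts in the same order. Within their own genes the other parts moved instead. The CDS of these genes took 62.0% ± 0.9 of the genes' counts with exon 5 and 62.4% ± 1.0 without exon 5, against 46.0% ± 2.0 in inputs, while the 3' UTR took 28.2% ± 2.0 and 26.8% ± 1.5, against 44.2% ± 2.2. The 5' UTR share of the same genes was 9.81% ± 1.29 and 10.7% ± 0.6, against 9.81% ± 0.44.

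Summed over all 4382 genes, these 5' UTRs were read less densely than the CDS of the same genes, and the summed ratio was lower in isoform libraries. The ratio of counts per kilobase of 5' UTR to counts per kilobase of CDS was 0.606 ± 0.073 with exon 5 and 0.658 ± 0.030 without exon 5, against 0.818 ± 0.041 in inputs (SD, n = 3 each). Libraries with exon 5 lay between 0.561 and 0.690, libraries without exon 5 between 0.623 and 0.677, and inputs between 0.784 and 0.863. No isoform library reached the lowest input, while the isoforms overlapped each other. These summed ratios are a description and carry no test. Medians over genes do not settle the direction, because few counts per gene in the shallow inputs leave many ratios at 0. They were taken over genes with 20 or more counts in 5' UTR and CDS together, summed over a group's libraries. The median ratio was 0.561 with exon 5 (2079 genes) and 0.658 without exon 5 (2183 genes), against 0 in inputs (746 genes). At least 50% of these genes had no 5' UTR count in inputs. In the test of the 5' UTR against the CDS, the median log2 change of the ratio, isoforms over input, was 0.83 over the 632 long 5' UTRs tested (366 positive) and 0.86 over all 715 tested. Genes could enter that test through counts in the deeper isoform libraries alone, so this median gives no direction either.

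The gap between isoforms and inputs was not even over length. At 1000 bases or more the ratio was 0.386 ± 0.010 with exon 5 and 0.401 ± 0.015 without exon 5, against 1.00 ± 0.08 in inputs. At 500 to under 1000 bases it was 0.647 ± 0.033, 0.651 ± 0.026 and 0.648 ± 0.025, with all ranges overlapping. At 300 to under 500 bases it was 0.577 ± 0.137 and 0.681 ± 0.090, against 0.919 ± 0.172, and at 200 to under 300 bases 0.646 ± 0.107 and 0.765 ± 0.027, against 0.690 ± 0.287. In both of these classes the input range reached into that of the isoform libraries. For the 4461 5' UTRs under 200 bases the ratio was 0.572 ± 0.010 and 0.668 ± 0.030, against 1.01 ± 0.17.

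**Figure D1:**
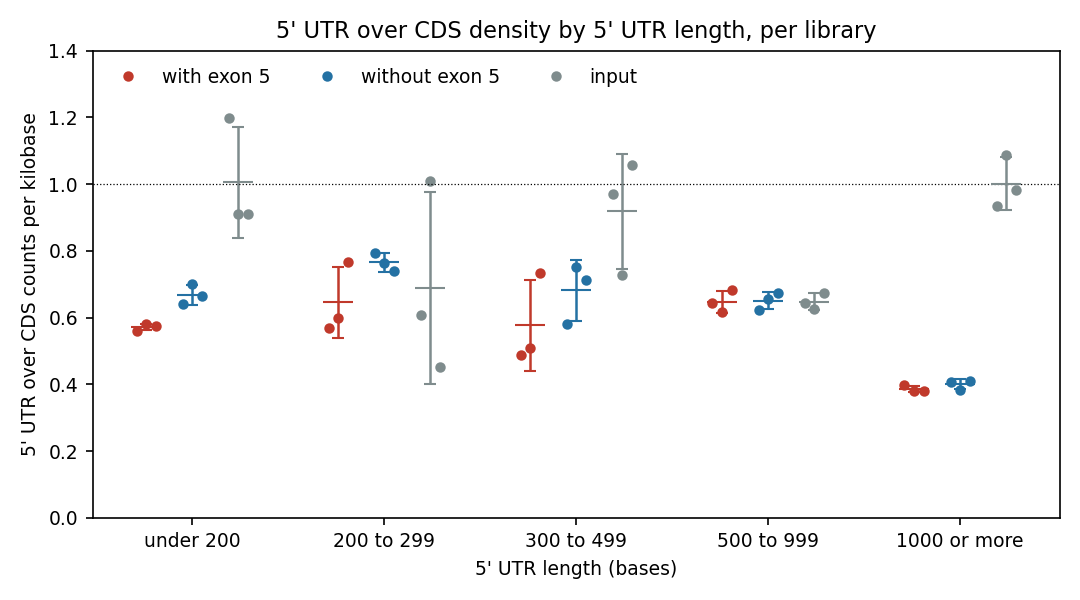
Ratio of counts per kilobase in the 5' UTR to counts per kilobase in the CDS of the same genes (vertical axis) by 5' UTR length in bases (horizontal axis), with 1 point per library and the mean ± SD of 3 libraries per group. At 1000 bases or more the isoform libraries lie between 0.380 and 0.412 and the inputs between 0.935 and 1.09, while at 500 to under 1000 bases the groups overlap.

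For 5' UTRs of 1000 bases or more, the CDS differed more than the 5' UTR. The CDS of these 259 genes had 33.4 ± 3.2 CPM per kilobase (with no TMM factor) with exon 5 and 31.7 ± 0.6 without exon 5, against 15.1 ± 1.6 in inputs. Their 5' UTRs had 12.9 ± 1.2 and 12.7 ± 0.7, against 15.1 ± 1.7. A few input-rich 5' UTRs weighed heavily. In alternatives chosen after seeing the data, the ratio without the 10 of that length with most input counts was 0.442 ± 0.028 with exon 5 and 0.486 ± 0.028 without exon 5, against 0.714 ± 0.246 in inputs, and the input range of 0.433 to 0.892 then overlapped that of the isoforms. The 5' UTRs left had 11.1 ± 0.8 and 11.2 ± 0.7 CPM per kilobase (with no TMM factor), against 7.42 ± 1.70 in inputs. Taking out the 5' UTRs with most input counts lowers the input level by design. This alternative therefore shows the weight of those 10 and gives no direction for the rest. Without the 10 with most counts over all libraries, the ratio was 0.332 ± 0.031 and 0.301 ± 0.004, against 1.33 ± 0.05. The 5' UTRs left then had 8.28 ± 0.07 and 7.67 ± 0.13 CPM per kilobase (with no TMM factor), against 13.8 ± 1.4 in inputs. Most counts over all libraries come from the deeper isoform libraries, so taking out these 10 lowers the isoform level by design. The wider gap therefore gives no direction either.

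Counts were spread over many 5' UTRs in isoform libraries and over few in inputs. An isoform library had counts in 1063 to 1669 of the 4382, and an input in 135 to 421. A set of 130 to 183 long 5' UTRs held 50% of the counts of an isoform library, against 26 to 65 for an input, and the 10 with most counts held 8.58% to 12.1%, against 19.1% to 30.04%. Depth moved with these numbers, and its part in them was not tested. In all, 572 had a count in each library with exon 5, 876 in each library without exon 5 and 31 in each input.

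Single libraries carried some of the highest values. Among 482 long 5' UTRs with 100 or more counts over the isoform libraries, 351 were counted in all 6, and 78 (16.2%) had over 50% of their isoform CPM in 1 library. That library was replicate 3 with exon 5 for 24 and replicate 3 without exon 5 for 26 of them. For Tnfsf13b, the B-cell survival factor BAFF, CPM were 0, 0 and 444 with exon 5 and 0, 0 and 256 without exon 5, against 0 in all 3 inputs. Marcksl1, a regulator of the actin cytoskeleton, had 0, 10.2 and 600 CPM with exon 5 and 0, 9.79 and 15.0 CPM without exon 5, against 0 in all inputs.

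The 20 long 5' UTRs with the highest mean level over the isoform libraries are given first. Gnas, which encodes the stimulatory G protein alpha subunit and lies in an imprinted locus with several promoters and an antisense transcript (chr2:174284320-174346744, 5' UTR of 1859 bases), led the list. It had 245, 490 and 540 CPM with exon 5 and 274, 397 and 767 CPM without exon 5, against 128, 142 and 99.8 CPM in inputs. All isoform libraries lay above all inputs, but the difference missed the threshold (log2 fold change 1.87 ± 0.87 SE, adjusted p = 0.0950, edgeR quasi-likelihood test). No source used here names the counting tool or its strand setting, so sense and antisense reads at this locus cannot be told apart.

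Slit2, an axon guidance ligand (chr5:47981291-48307735, 1902 bases), had 376, 326 and 450 CPM with exon 5 and 251, 386 and 309 CPM without exon 5, against 0, 93.3 and 0 CPM in inputs. Rptor, the scaffold of the growth-controlling kinase complex mTORC1 (chr11:119602905-119899591, 661 bases), had 175, 223 and 247 CPM with exon 5 and 80.3, 170 and 718 CPM without exon 5, against 0, 29.5 and 0 CPM. For Slit2 the groups did not overlap and the difference missed the threshold (log2 fold change 3.44 ± 1.27 SE, adjusted p = 0.0553, edgeR). Rptor passed it (4.64 ± 1.38 SE, adjusted p = 0.0330), as did Tsc22d2, of the TSC22 family of transcriptional regulators (3.97 ± 1.28 SE, adjusted p = 0.0374), and Homer1, a scaffold of glutamate receptors (4.16 ± 1.31 SE, adjusted p = 0.0340).

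The rest of the 20 highest were Ppp3ca, Nsd3, Ptprg, Gnao1, Hand2, Gprasp1, Man2a1, Gsk3b, Dusp4, Vash1, Frmd4a, Wapl, Ep300, Rai1 and Vgf. Ppp3ca is the catalytic subunit of calcineurin, Gsk3b a kinase of the Wnt and insulin pathways, Ep300 a histone acetyltransferase and Hand2 a transcription factor of sympathetic neurons. Vgf, a neuropeptide precursor, ran the other way in 1 input: it had 147, 46.5 and 94.6 CPM with exon 5 and 233, 234 and 220 CPM without exon 5, against 1167, 138 and 106 CPM. Per kilobase of 5' UTR the order changed. Among genes named here, means over the isoform libraries were 449 CPM per kilobase for Zswim8, 448 for Gnao1, 433 for Dusp4, 425 for Marcksl1, 414 for Kif5c, 407 for Rptor and 406 for Wapl.

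**Figure D2:**
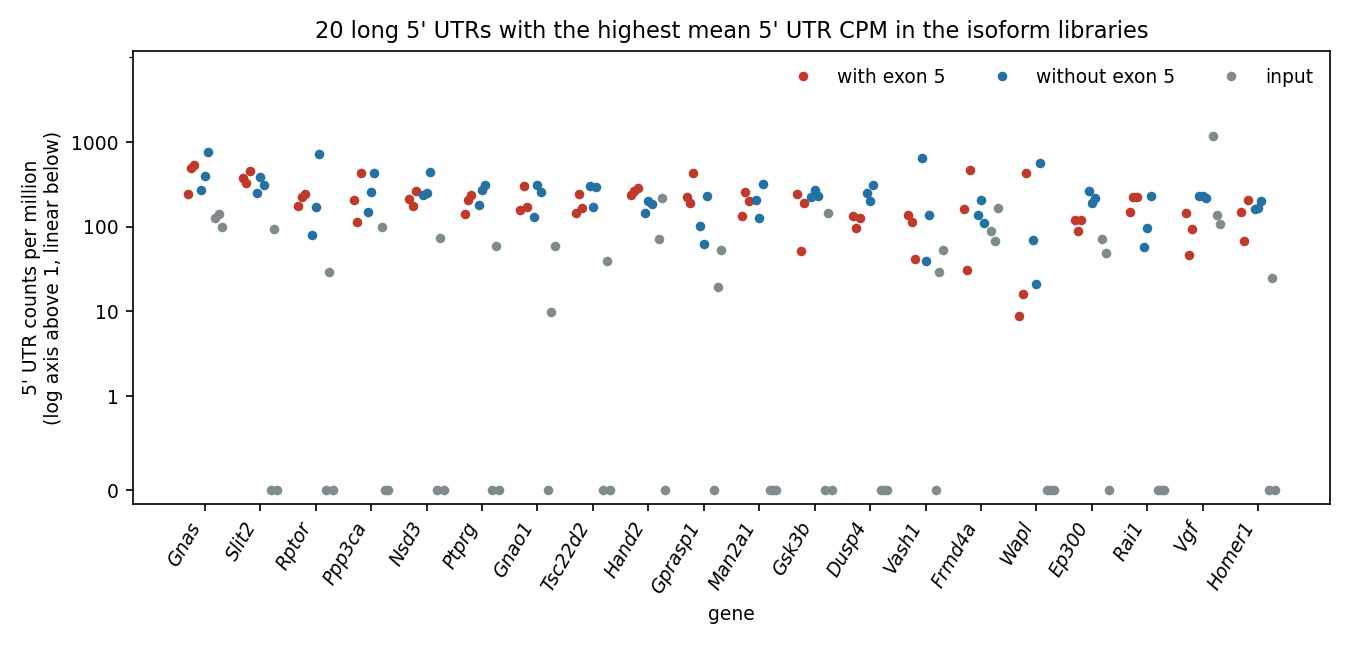
5' UTR level in CPM (vertical axis, log scale above 1 and linear below) of the 20 long 5' UTRs with the highest mean over the isoform libraries (horizontal axis), with 1 point per library. Man2a1, Dusp4, Wapl and Rai1 stand at 0 in all 3 inputs, and Vgf has its highest value, 1167, in an input.

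Each isoform was then set against input, which asks which 5' UTRs were recovered with Chtop beyond their level in the lysate. Of the 4382 long 5' UTRs, 684 had enough counts to be tested. With both isoforms together, 149 passed the threshold (adjusted p under 0.05, edgeR quasi-likelihood test, Benjamini-Hochberg over the 771 5' UTRs tested), 140 higher and 9 lower, beside 20.5% of all 5' UTRs tested (19.1% higher and 1.43% lower). With exon 5, 76 passed (73 higher and 3 lower, beside 10.2% of all tested, 9.47% higher and 0.778% lower), and without exon 5, 128 passed (124 higher and 4 lower, beside 17.5%, 17% higher and 0.519% lower). These comparisons share the inputs. The 684 are most of the 771 tested, so the shares over all tested had to lie near those of the long ones. Of the 87 shorter 5' UTRs tested, 9 passed with both isoforms (10.3%, 7 higher and 2 lower). With exon 5, 3 of the 87 passed (3.45%, 0 higher and 3 lower), and without exon 5, 7 passed (8.05%, 7 higher and 0 lower). The difference between long and shorter ones was not tested. The low-count filter could be passed through the deeper isoform libraries alone, so these counts do not measure how many long 5' UTRs differ.

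The counts rest on zeros in shallow inputs and on the scaling. Of the 140 called higher, 131 had 0 counts in all 3 inputs, and so did 334 of the 684 tested. The median log2 fold change was 3.97 over all 771 tested and 3.95 over the long 5' UTRs. Without TMM factors the median over long 5' UTRs was 2.64, and 18 (10 higher and 8 lower) passed in place of 149. Leaving out 1 library gave 0 to 93 calls: 0 without replicate 1, 2 or 3 with exon 5 or replicate 3 without exon 5, 2 without replicate 1 and 20 without replicate 2 of the isoform without exon 5, and 54, 81 and 93 without input 1, 2 or 3. DESeq2 called 197.

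The highest differences over input without overlap are given gene by gene. Overlap was judged on the scaled values, and a count of 0 in an input allows up to 14.7 to 20.0 CPM. Wapl (8.75 and 16.0 CPM) and Zswim8 (17.5 CPM) have isoform libraries below the upper end of that range, so for them non-overlap is not established. Man2a1, a Golgi mannosidase of N-glycan processing (chr17:64600688-64755110, 5' UTR of 1000 bases), had 136, 255 and 200 CPM with exon 5 and 205, 129 and 316 CPM without exon 5, against 0 in all 3 inputs. That is at least 12.05-fold higher with both isoforms, taking 3 counts in each input as the floor (adjusted p = 0.0181, edgeR). Such folds and the ratios of pooled levels, here and below, rest on the TMM factors. These were 0.721 to 0.875 in isoform libraries and 1.17 to 1.99 in inputs. Without them every such fold would be smaller, so each is a lower bound under this scaling only. Its CDS was counted in all 9 libraries, with 14, 25 and 14 counts in inputs.

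Dusp4, a phosphatase that turns off MAP kinases (chr8:34807610-34819894, 432 bases), had 134, 96.0 and 126 CPM with exon 5 and 252, 201 and 314 CPM without exon 5, against 0 in all inputs, at least 10.9-fold higher (adjusted p = 0.0181, edgeR). The libraries without exon 5 all lay above those with exon 5, but the isoform difference did not pass (log2 fold change, with over without exon 5, -1.11 ± 1.02 SE, adjusted p = 0.997). Myt1l, a transcription factor that keeps neurons neuronal (chr12:29527590-29923216, 1675 bases), had 93.3, 74.2 and 136 CPM with exon 5 and 159, 131 and 213 CPM without exon 5, against 0 in all inputs, at least 7.83-fold higher (adjusted p = 0.0181). Its CDS had only 1 count over the inputs.

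Rai1, a chromatin-bound regulator of transcription (chr11:60104917-60199197, 687 bases), had 149, 227 and 222 CPM with exon 5 and 57.4, 97.9 and 234 CPM without exon 5, against 0 in all inputs, at least 9.59-fold higher (adjusted p = 0.0181, edgeR). Stk11, the tumour suppressor kinase LKB1 that activates AMPK (chr10:80115767-80130679, 919 bases), had 182, 180 and 276 CPM with exon 5 and 99.5, 75.9 and 91.0 CPM without exon 5, against 0, at least 8.79-fold higher (adjusted p = 0.0181). Its libraries with exon 5 all lay above those without, with no call between the isoforms (log2 fold change 1.26 ± 1.04 SE, adjusted p = 0.997).

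Kif5c, a neuronal kinesin heavy chain (chr2:49619286-49774778, 364 bases), had 30.6, 49.5 and 126 CPM with exon 5 and 220, 380 and 98.5 CPM without exon 5, against 0, at least 8.78-fold higher (adjusted p = 0.0213, edgeR). Ccdc88a, which encodes the actin-binding protein girdin (571 bases), was at least 7.61-fold higher (adjusted p = 0.0181), Zswim8, a subunit of a ubiquitin ligase (297 bases), at least 7.78-fold (adjusted p = 0.0275) and Prkce, protein kinase C epsilon (808 bases), at least 7.36-fold (adjusted p = 0.0181). All 3 had 0 counts in the inputs, and Prkce had no CDS count there either. Wapl, which releases cohesin from chromatin (chr14:34672379-34747983, 455 bases), was at least 10.8-fold higher (adjusted p = 0.0330), but its values were uneven, with 8.75, 16.0 and 429 CPM with exon 5 and 68.9, 20.8 and 565 CPM without exon 5, against 0. Replicate 3 of each isoform held most of its level.

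The 9 called lower were Rps25, Akt2, Usp48, 2410002F23Rik, Mettl26, Naa80, Eif4g1, Polr1d and Ankrd40, of which Polr1d and Ankrd40 were named after their values were seen. Rps25, a protein of the small ribosomal subunit (chr9:44407714-44410406, deposited 5' UTR of 616 bases), had 0, 0 and 0 CPM with exon 5 and 0, 4.90 and 0 CPM without exon 5, against 16.8, 226 and 86.5 CPM in inputs (log2 fold change -7.50 ± 1.44 SE, adjusted p = 0.0181, edgeR). Its 5' UTR held 4 counts over the isoform libraries and 62 over the inputs, while its CDS held 39 and 52. Akt2, an insulin-responsive kinase (chr7:27591552-27640826, 493 bases), had 0, 0 and 17.5 CPM with exon 5 and 0, 3.67 and 2.26 CPM without exon 5, against 50.3, 54.0 and 200 CPM (-4.74 ± 1.29 SE, adjusted p = 0.0330).

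Mettl26, a little-studied gene of the methyltransferase-like family (chr17:25875500-25877163, 456 bases), had 37.9, 55.3 and 66.3 CPM with exon 5 and 1.91, 110 and 161 CPM without exon 5, against 609, 530 and 393 CPM (log2 fold change -2.87 ± 0.93 SE, adjusted p = 0.0375, edgeR). Its CDS held 16 counts over the isoform libraries and 0 over the inputs. In Eif4g1 and Naa80, 1 input held most of the input level. Eif4g1, the translation initiation scaffold, had 1536, 39.3 and 0 CPM in inputs, against which its 7.27 to 47.8 CPM in isoform libraries were lower in the fit (-4.59 ± 1.22 SE, adjusted p = 0.0310), and without input 1 the log2 fold change was 0.093 (adjusted p = 0.986). Naa80, the actin N-terminal acetyltransferase, had 0 to 26.2 CPM in isoform libraries, against 22.3, 0 and 772 CPM in inputs (-5.97 ± 1.47 SE, adjusted p = 0.0275), and without input 3 the log2 fold change was -1.40 (adjusted p = 0.641). Polr1d, a subunit shared by RNA polymerases I and III, and Ankrd40, an ankyrin repeat gene, also overlapped between the groups.

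In Usp48 and 2410002F23Rik the 5' UTR moved apart from the CDS. When the 5' UTR was tested against the CDS of the same gene in 1 model, 632 long 5' UTRs entered. These 2 passed, both lower with the isoforms, beside 0.28% of the 715 tested. An unadjusted p under 0.05 was found for 118 of the 632, beside 130 of all 715. Usp48, a deubiquitinase (chr4:137594120-137658537, 5' UTR of 2688 bases), had 17.5, 29.1 and 14.6 CPM in its 5' UTR with exon 5 and 45.9, 52.6 and 74.4 CPM without exon 5, against 94.9, 349 and 326 CPM in inputs. Its CDS had 316, 328 and 452 counts with exon 5 and 313, 585 and 988 counts without exon 5, against 0, 21 and 0 counts. The 5' UTR thus held 6.67% of its 5' UTR and CDS counts over the isoform libraries, against 86.7% over the inputs (log2 change of the ratio -8.37 ± 1.41 SE, adjusted p = 0.0170, edgeR).

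2410002F23Rik, an uncharacterised transcript (chr7:44246711-44252319, 5' UTR of 3281 bases), had 102, 132 and 108 CPM in its 5' UTR with exon 5 and 5.74, 35.5 and 41.3 CPM without exon 5, against 223, 643 and 386 CPM in inputs. Its CDS held 875 counts over the isoform libraries, against 1 count over the inputs. The 5' UTR held 29.1% of both over the isoform libraries, against 99.6% over the inputs (adjusted p = 0.0119, edgeR). RefSeq places snoRNA genes, among them Snord88a and Snord88c, inside the span of 2410002F23Rik, and Snord66 inside that of Eif4g1. No source used here says how overlapping genes were counted, and the part of these small RNAs in the counts was not tested. Of the 9 called lower, 2 spans held a snoRNA gene, against 7 of the 139 called higher that were matched to 1 RefSeq gene and 26 of 680 tested.

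Both calls were lost without replicate 1 or 2 with exon 5 or replicate 2 without exon 5 (adjusted p = 0.0565 to 0.0911, edgeR), and Usp48 also without input 1 (0.0542). DESeq2 called 34 long 5' UTRs in this comparison, 14 higher and 20 lower. Man2a1, Dusp4 and Stk11 were the nearest in the other direction, each with an adjusted p of 0.0584 (edgeR), and 0 passed as higher.

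**Figure D3:**
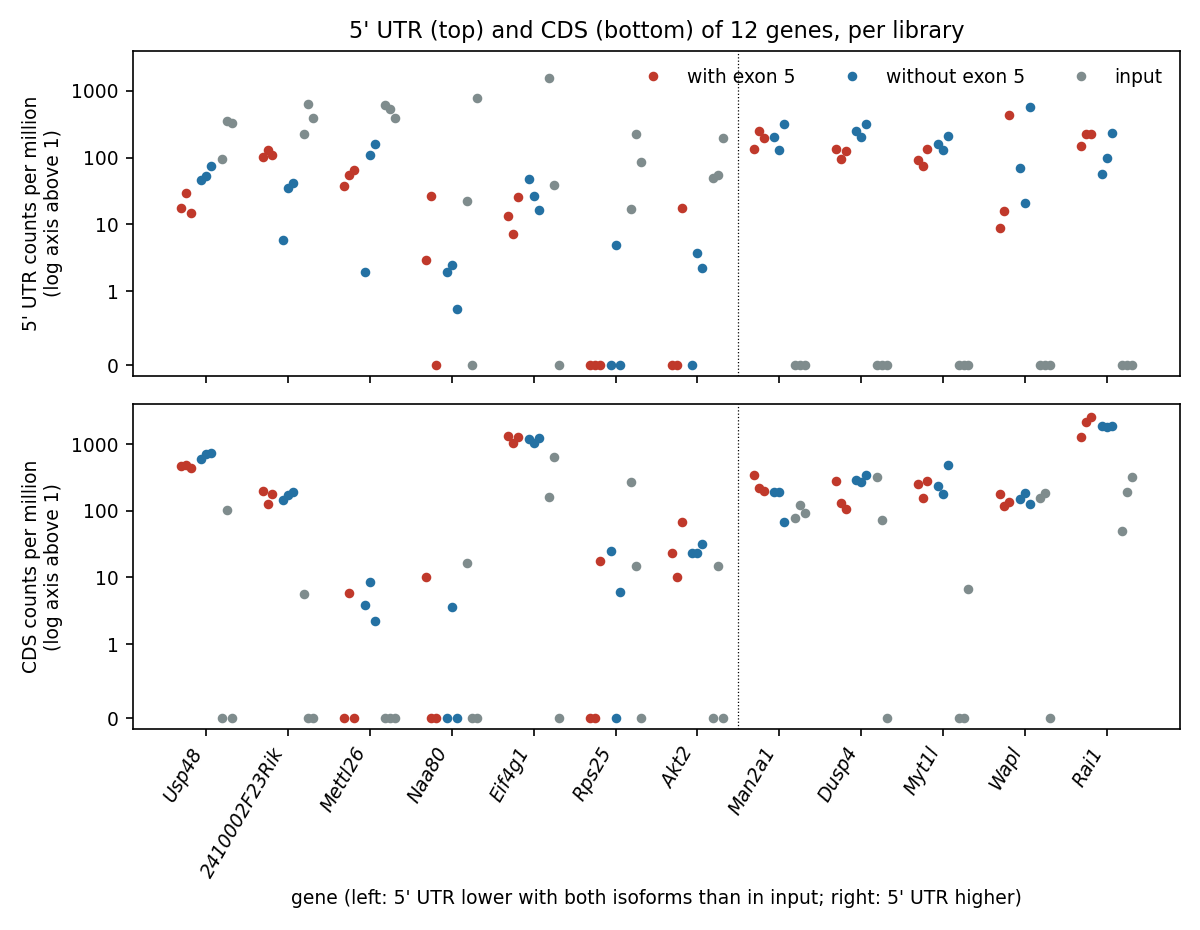
CPM in the 5' UTR (top) and the CDS (bottom) of 12 genes, with 1 point per library and a log scale above 1. For Usp48 and 2410002F23Rik the inputs lie highest in the 5' UTR and below all isoform libraries in the CDS, while for Man2a1 all 3 inputs are at 0 in the 5' UTR and above 0 in the CDS.

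Across genes, the balance of 5' UTR and CDS varied widely. Among 1687 genes with a long 5' UTR and 100 or more counts in 5' UTR and CDS together over the isoform libraries, the median density ratio was 0.759, with 10% below 0.067 and 10% above 2.85. The 5' UTR was denser than the CDS in 703 of them (41.7%), and in 137 it held more counts outright. In 109 it had no count at all, so the lowest ratios were ties and none is singled out.

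Of the 10 highest ratios, 8 had under 100 CDS counts over the isoform libraries, while Wapl had 741 and Prkce 170. Tmem35b, a small membrane protein gene (5' UTR of 767 bases), had 77.3, 90.2 and 139 CPM in its 5' UTR with exon 5 and 78.4, 50.2 and 37.6 CPM without exon 5, against 0 in inputs, while its CDS had 8 counts over the isoform libraries and 0 over the inputs. It was at least 4.60-fold higher over input (adjusted p = 0.0275, edgeR). Mettl26 had a density ratio of 38.8 over the isoform libraries and Ldlrad4, a repressor of TGF-beta signalling, of 30.4. The others among the 10 highest were Tnfsf13b, Marcksl1, Frmd6, Wapl, Zfp60, Ppp1cc and Prkce, and 3 of these 10 (Tnfsf13b, Marcksl1 and Frmd6) did not pass the low-count filter.

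**Figure D4:**
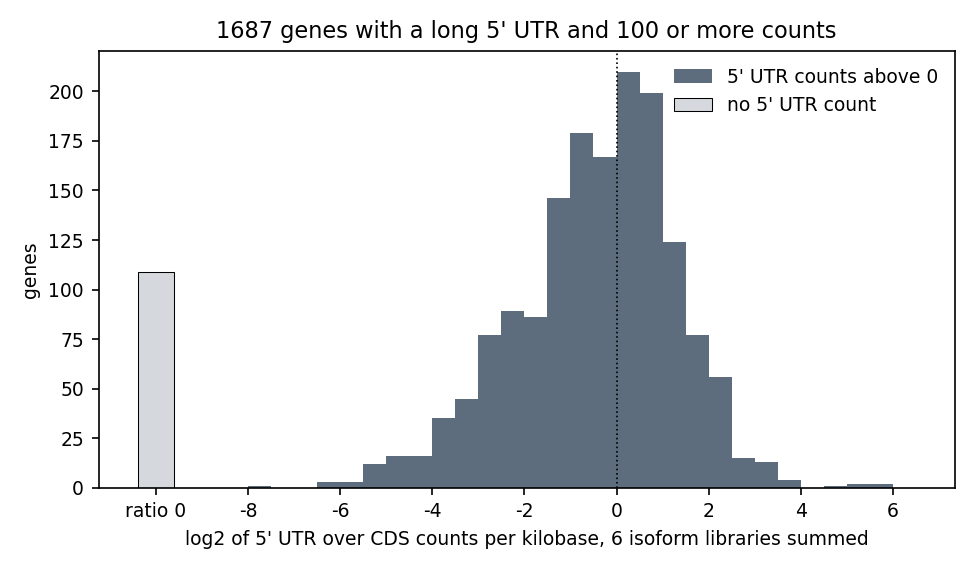
Number of genes (vertical axis) by log2 ratio of counts per kilobase in the 5' UTR to counts per kilobase in the CDS (horizontal axis), with the 6 isoform libraries summed, for 1687 genes. The pale bar holds the 109 genes with no 5' UTR count, and 703 genes lie right of the dotted line at a ratio of 1.

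Of the 10 longest 5' UTRs with 50 or more counts, 3 were called lower (Usp48, 2410002F23Rik and Naa80, the last lost without input 3) and 1 higher (Pcdh17), beside 1.43% lower and 19.1% higher of all tested. Luc7l2, a splicing factor (3068 bases), had 51.0, 93.1 and 183 CPM with exon 5 and 82.2, 75.9 and 149 CPM without exon 5, against 430, 44.2 and 253 CPM in inputs, with no call (log2 fold change -1.19 ± 0.88 SE, adjusted p = 0.296, edgeR). Rpl18, a protein of the large ribosomal subunit with a deposited 5' UTR of 2398 bases, had 3 counts over the isoform libraries and 80 over the inputs, all 80 in input 2, and was not tested. Pcdh17, a protocadherin of 2532 bases, was at least 2.67-fold higher with the isoforms (adjusted p = 0.0330), with 0 counts in inputs. Lcor, Zcchc7, Dpp8 and Tcf4 did not pass, with adjusted p between 0.333 and 0.889.

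At the length limit, the first inside were Arhgap26, Nucks1 and Wrnip1 with 200 bases each, which had 182, 103 and 57 counts over the isoform libraries, against 0, 4 and 0 over the inputs. Just outside, Rab1a and Shprh with 198 bases and Stam with 199 bases had 50, 67 and 103 counts, against 1, 1 and 0.

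Genes were also read in lists chosen by function, given with the share of all tested 5' UTRs called higher (19.1%) and lower (1.43%) as background. Only plus-strand genes could enter: of 314 genes in the lists written out by name, 125 were on the minus strand. Among 6 MAP kinase phosphatases and Sprouty-family inhibitors of the Ras pathway, 4 were tested and 2 rose, Dusp4 and Spred1. Spred1, which blocks Ras activation of Raf (351 bases), had 16.0, 77.1 and 52.6 CPM with exon 5 and 34.4, 28.2 and 136 CPM without exon 5, against 0 in inputs, at least 3.35-fold higher (adjusted p = 0.0330, edgeR). That fold is of the mean, and the value of 16.0 CPM lies within the input floor of 14.7 to 20.0 CPM.

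Among 9 neuronal transcription factors, 6 were tested and 2 rose, the zinc finger factors Myt1l and Myt1. Myt1 (364 bases) had 131, 13.1 and 47.8 CPM with exon 5 and 117, 35.5 and 8.27 CPM without exon 5, against 0, at least 3.43-fold higher (adjusted p = 0.0330, edgeR). That fold is of the mean, and the values of 13.1 and 8.27 CPM lie below the input floor of 14.7 to 20.0 CPM. Among 10 chromatin regulators, 8 were tested and 2 rose, the chromatin remodeller Chd7 (at least 4.55-fold, adjusted p = 0.0310) and the SET-domain protein Setd5 (at least 5.16-fold, adjusted p = 0.0330). For Setd5, replicate 3 without exon 5 stood alone at 324 CPM, with the other isoform libraries between 10.2 and 61.2. Its value of 10.2 CPM lies below the same floor.

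Among 18 synapse and axon genes, 7 were tested and 2 rose, both postsynaptic scaffolds of the PSD-95 family. Dlg1 was at least 4.12-fold higher (adjusted p = 0.0310, edgeR). Dlg4, PSD-95 itself (1135 bases), had 192, 77.1 and 54.6 CPM with exon 5 and 40.2, 191 and 69.9 CPM without exon 5, against 11.2, 0 and 6.66 CPM in inputs. With 3 input counts in all, the ratio of pooled levels was 17.9 (exact 95% interval 6.09 to 87.1, adjusted p = 0.0375).

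Of 5 mRNA export factors, 1 was tested and it rose. This was Ddx39b, the RNA helicase UAP56 of the TREX complex to which Chtop itself belongs (chr17:35241746-35253707, 1477 bases). It had 14.6, 108 and 80.9 CPM with exon 5 and 101, 74.7 and 235 CPM without exon 5, against 0 in inputs, at least 5.97-fold higher (adjusted p = 0.0275, edgeR). That fold is of the mean, and the value of 14.6 CPM lies below the input floor of 14.7 to 20.0 CPM. The 5' UTR of Ddx39b was sparse beside its CDS, with a density ratio of 0.203 over the isoform libraries.

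Of 13 growth regulators with reported structured 5' UTRs, 3 were tested and 1 rose, the cell-cycle inhibitor Cdkn1b (p27), at least 4.03-fold (adjusted p = 0.0310, edgeR). Of 7 genes of insulin and growth factor signalling, 3 were tested. The receptor Fgfr1 rose, at least 4.70-fold (adjusted p = 0.0299), and Akt2 fell, as above. Of 9 ubiquitin ligases and ubiquitin-specific proteases, 4 were tested and Usp9x rose, with a ratio of pooled levels of 26.4 on 1 input count (exact 95% interval 4.69 to 1046, adjusted p = 0.0421). Of 103 Zfp zinc finger genes, 14 were tested and 2 rose, Zfp148 (at least 2.14-fold, adjusted p = 0.0355) and Zfp664 (at least 2.18-fold, adjusted p = 0.0330).

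In the other lists, 0 were called higher. Of 4 genes with upstream reading frames that govern the stress response, 3 were tested and 0 passed. Atf4, the best known of them, had 30.6, 53.8 and 20.5 CPM with exon 5 and 47.8, 45.3 and 33.1 CPM without exon 5, against 0, 78.6 and 0 CPM in inputs (log2 fold change 0.51 ± 1.26 SE, adjusted p = 0.784, edgeR). Of 6 immediate-early genes 2 were tested and 0 passed, with an adjusted p of 0.163 for Egr1. Of 5 genes for RNA-binding and mRNA-control proteins 4 were tested and Eif4g1 was lower on the 1 input described above. Of 17 cytosolic ribosomal proteins 3 were tested and Rps25 was lower.

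The isoforms were then compared with each other. Of the 684 long 5' UTRs tested, 0 differed between libraries with and without exon 5 at an adjusted p under 0.05 (edgeR, beside 0% of all 771). An unadjusted p under 0.05 was found for 11, beside 15 of all 771, and DESeq2 also called 0. In the ratio of 5' UTR to CDS 0 of 632 passed, with 7 at an unadjusted p under 0.05, beside 9 of all 715. The median log2 fold change, with over without exon 5, was -0.27 for long 5' UTRs and -0.29 over all 771.

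The smallest p-values belonged to genes with few counts, and only some of these genes are described. Cdc7, the kinase that fires replication origins (462 bases), had 0 in all 3 libraries with exon 5 and 22.95, 25.7 and 18.8 CPM without exon 5 (edgeR, unadjusted p = 0.00658, adjusted p = 0.997). Uhrf1, a reader of hemimethylated DNA (334 bases), had 1.46, 0 and 0 CPM with exon 5 and 65.0, 17.1 and 21.0 CPM without exon 5 (edgeR, unadjusted p = 0.00810, adjusted p = 0.997). In the other direction, Tti2, a co-chaperone of PI3K-like kinases (535 bases), had 37.9, 45.1 and 204 CPM with exon 5 and 5.74, 20.8 and 9.77 CPM without exon 5 (edgeR, unadjusted p = 0.0394, adjusted p = 0.997). For these 3 genes the libraries of the isoforms did not overlap. In Pabpc4, a cytoplasmic poly(A)-binding protein, they did, with 414, 138 and 11.7 CPM with exon 5 and 51.6, 29.4 and 5.26 CPM without exon 5.

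In the authors' deposited table, 378 long 5' UTRs had an isoform value. Their class, which its column name ties to a log2 fold change of 1.0 in the same direction in all replicates, was pEX5 for 35 (9.26%), mEX5 for 58 (15.3%) and BOTH for 285. Over all 408 5' UTRs of that table the shares were 9.07% pEX5 and 15.2% mEX5. The long ones make up 378 of these 408, so the shares had to lie close and do not compare long with shorter 5' UTRs. Cdc7 and Uhrf1 were classed mEX5 and Tti2, Pabpc4 and Stk11 pEX5 in the authors' deposited table, from the same libraries as the test above.

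**Figure D5:**
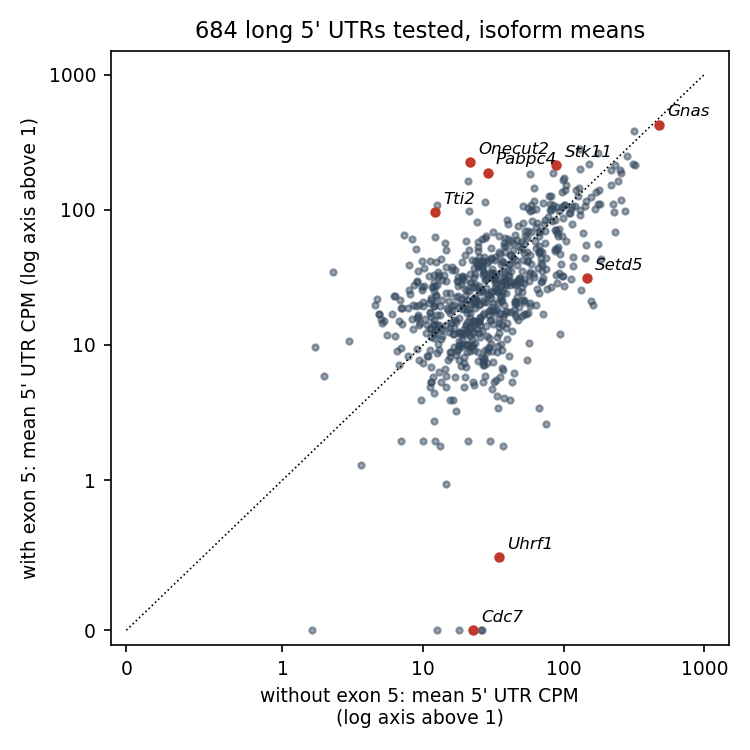
Mean 5' UTR level in CPM of 3 libraries with exon 5 (vertical axis) against 3 libraries without exon 5 (horizontal axis) for the 684 long 5' UTRs tested, on log scales above 1, with the dotted line at equal values and 8 genes named. Cdc7 lies at 0 with exon 5, and 0 of the 684 passed the test.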

How the data were processed

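The deposited values are whole read counts by gene for 5' UTR, CDS, 3' UTR and total in 9 libraries, with part lengths in bases, per the file headers. Per the submitters' processing notes, TopHat2, DESeq2 and mm10 were used. No source used here states read filtering, strand handling or collapsing by the random primer bases, so floors and intervals cover counting error only. The log2 fold changes and isoform classes of the authors' deposited table were used only as named, and 27 columns of per-sample values were not used.

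The 5' UTR table was fitted whole in R 4.3.3 with edgeR 4.0.16 (glmQLFit, robust, all 9 libraries), with library sizes and TMM factors from the total table and filterByExpr (minimum count 10, total 15). The 5' UTR was tested against the CDS in 1 model over both parts, with library as a block. DESeq2 1.42.0, other scalings, no filter, replicate numbers as a block and leaving out each library were alternatives. Fits were tested on simulated data. Column headers and titles number 2 inputs differently, and the titles' numbers were kept.

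Genes named were drawn from the 20 with the highest CPM, the 10 highest and 10 lowest calls without overlap per comparison (or the 5 smallest p), the 10 longest, those at the length limit, the 10 highest density ratios, calls from 13 lists (or their members with most counts), and Man2a1, Dusp4 and Myt1l. Not every gene that this rule gave is described. The regions, lists and rule were chosen with earlier results of these data known. Same-numbered isoform libraries correlated at r = 0.1, 0.043 and 0.105 in their deviations from group means (771 rows). Differently numbered ones lay lower, at -0.123 to 0.017. The main fit did not treat numbers as pairs, and fits with a replicate block are given below as alternatives. An effect of the processing day shared by same-numbered libraries was not tested.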

Additional observations from a re-analysis of the deposited data

How the results depend on the processing

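Counts of long 5' UTRs past the threshold, in the order both isoforms, with exon 5 and without exon 5 over input, were 149, 76 and 128. Under the alternatives only long 5' UTRs were counted, with no share over all 5' UTRs beside them. Those counts therefore show how the calls move and do not set long 5' UTRs apart. They became 351, 298 and 338 with TMM factors from the 5' UTR table, 18, 0 and 0 with no TMM factor, and 32, 20 and 5 with no low-count filter. With the replicate block they were 85, 35 and 70, and 29, 13 and 29 with the inputs numbered as in the column headers, an alternative chosen after seeing the data. With only the groups compared they were 44 with exon 5 and 68 without exon 5 (for both isoforms this is the same fit). DESeq2 called 197, 157 and 145. Leaving out 1 library gave 0 to 93, 0 to 71 and 0 to 75. Against the CDS, the 2 calls became 11 with separate library sizes, 34 with DESeq2 and 0 to 4 on leaving out 1 library, and stayed 2 with the replicate block. Between the isoforms, 0 were called under every alternative run. Of 37 gene calls named, all 36 that DESeq2 gave an adjusted p for, 27 with the replicate block, 16 with no filter and 15 with no TMM factor kept direction and side of the threshold, and 1 reversed (Eif4g1, log2 fold change -5.18 to 0.093 over the inputs left out in turn). All 37 were lost without replicate 1 or 2 with exon 5, 35 without replicate 3 with exon 5 or replicate 1 or 3 without exon 5, and 24 without replicate 2 without exon 5. Without input 2 or input 3, 10 were lost each time. Without input 1, 14 were lost with their direction kept, and the reversed Eif4g1 was lost besides. The cause of these moves was not tested.

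The share of all counts at 300 bases or more was 2.35% with exon 5, 2.51% without exon 5 and 2.26% in inputs, as fewer regions were summed. Without the 10 long 5' UTRs with most counts, the share without exon 5 was 2.81% and its density ratio 0.626, and at 300 bases or more that ratio was 0.619. The median ratio over genes with 20 or more counts was 0 in inputs, where counts per gene are few. Leaving out 1 library, the ratio was 0.564 to 0.628 with exon 5, 0.648 to 0.675 without exon 5 and 0.795 to 0.835 in inputs, and the share 2.54% to 2.88%, 2.96% to 3.11% and 2.48% to 2.69%. Input depth limits every comparison: 3 counts are 14.7 to 20.0 CPM there.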
